A study of Mus musculus with 18 samples.

Results

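Purine and pyrimidine nucleotides are built de novo by a short chain of enzymes, and 10 of the genes that encode them were followed here in mouse embryonic fibroblasts (MEFs). The 10 genes were chosen by name: Cad, Dhodh and Umps of pyrimidine synthesis, and Ppat, Gart, Pfas, Paics, Adsl, Atic and Impdh2 of purine synthesis. Each was found by its mouse identifier in a table of raw read counts that held 55401 genes, of which 32589 could be given a symbol and 25336 had no read in any library. All 10 were measured in every library, with a lowest count of 82, so none was lost to a filter on low counts, and together they took 0.0479 to 0.0722% of a library's counts.

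The study asked how loss of the S6 kinases alters MEFs driven into senescence, a lasting growth arrest, by an activated oncogene. RNA was sequenced from 18 libraries in 6 groups of 3, arranged as 2 series. In the S6K1 series, wild-type (WT) MEFs carried either an empty vector (EV) or a vector for constitutively active HRAS (RAS), and S6K1 knockout (KO) MEFs carried RAS. In the S6K1/S6K2 series the groups were WT with EV, WT with RAS, and S6K1/S6K2 double knockout (DKO) with RAS. Every cell had gone through retroviral infection and drug selection, and the deletions were of the germline, present from conception on. S6K1 WT and KO embryos were littermates, whereas DKO embryos came from S6K2-null breeding and their WT controls from earlier stages of that breeding, so genotype and breeding stage cannot be told apart in that series. No knockout library with EV was analysed here, so the effect of a deletion could be read only in cells that carried RAS.

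Purine synthesis assembles the ring step by step on ribose phosphate and ends at IMP, from which AMP and GMP are made. Pyrimidine synthesis makes the ring first, as orotate, and joins it to ribose phosphate afterwards to give UMP. The CAD protein, which opens the pyrimidine pathway, is a known substrate of S6K1, and several of the genes are known targets of the transcription factor MYC. Dividing cells use both routes heavily, whereas resting cells depend more on salvage of free bases and nucleosides.

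Libraries held 8319445 to 14402442 counts, and the replicate numbers are those of the MEF lines in the labels, with the same WT line number under EV and under RAS. The study describes the MEFs of its RAS experiments as coming from separate embryos of different mothers. The labels give each library only a line number. Without a block in the fit, p-values measure the spread between these numbered lines. With the replicate number as a block, they measure the spread left once differences between the numbers are taken out. The deletions could be read in the counts: Rps6kb1, which encodes S6K1, measured 69.0 ± 6.74 CPM (counts scaled to library size) in S6K1 WT and 30.6 ± 6.75 CPM in KO with RAS, and Rps6kb2, which encodes S6K2, measured 25.8 ± 2.68 CPM in WT and 2.84 ± 0.186 CPM in DKO with RAS (SD, n = 3). Rps6kb1 in the DKO was at 37.5 ± 2.698 CPM against 80.6 ± 4.45 CPM in WT. The reads left over Rps6kb1 were not assigned to the deleted or the remaining part of the gene. Hras was at 61.8 ± 10.9 CPM with EV and 117 ± 2.35 CPM with RAS in the S6K1 series, and at 58.9 ± 7.56 and 99.1 ± 6.76 CPM in the other, and whether reads of the human transgene were counted there was not tested. All 12 fibroblast markers were found in every library. The 15 macrophage markers were found too, with a summed level in the S6K1 series of 648 to 3178 CPM for WT with EV, 731 to 3643 CPM for WT with RAS and 247 to 841 CPM for KO. The corresponding ranges of the S6K1/S6K2 series were 154 to 1397, 177 to 1004 and 73.3 to 236 CPM. Fcgr1 was at 0 in 1 library and no other macrophage marker was at 0 in any. In such bulk RNA, fewer cells of a type and less RNA per cell cannot be told apart.

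The 10 genes were expressed at levels that spanned an order of magnitude and more. Per kilobase of exon, Paics was the most abundant, with 59.8 ± 10.3 CPM per kb (SD over 18 libraries, range 39.9 to 72.8), and it lay above Atic in 18 of 18 libraries. Atic, Gart and Cad followed, at 18.9 ± 2.46, 17.7 ± 3.39 and 10.2 ± 2.64 CPM per kb, and Atic exceeded Gart in 14 of 18 libraries, so those neighbours were not fully separated. Impdh2, Umps and Adsl lay close together, at 9.40 ± 1.32, 8.98 ± 1.35 and 8.33 ± 1.53 CPM per kb, with Cad above Impdh2 and Impdh2 above Umps in only 11 of 18 libraries each. Ppat, at 5.65 ± 1.35 CPM per kb, was above Pfas in 18 of 18 libraries, and Dhodh was the lowest, at 1.74 ± 0.293 CPM per kb. The length used was that of all annotated exons of a gene together, not of the transcripts expressed here. By this measure the enzyme that commits ribose phosphate to purines was encoded by one of the rarer mRNAs of the set. Between the highest and the lowest library, Cad differed by 2.65-fold and Ppat by 2.29-fold, whereas Atic differed by 1.49-fold.

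**Figure D1:**
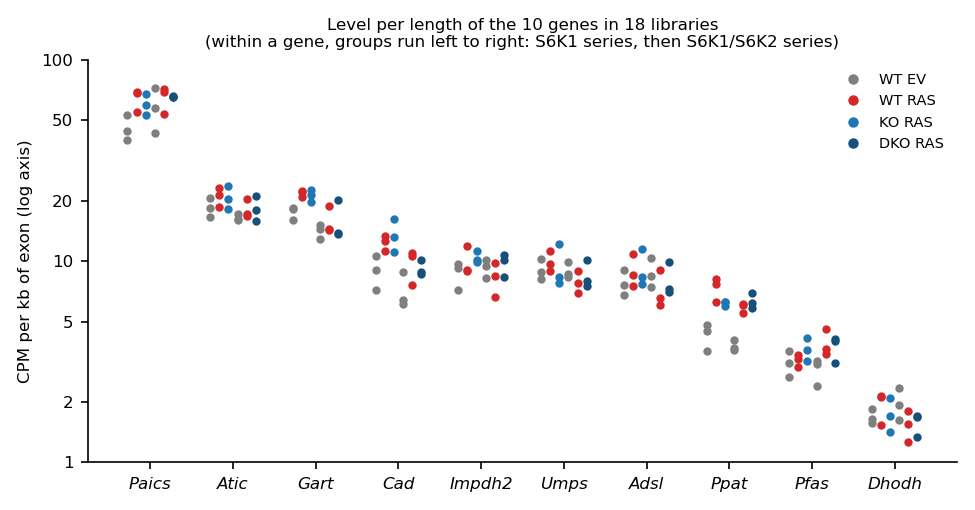
Level of each gene per kilobase of exon, in CPM per kb on a log axis, with one point per library and the 6 groups by colour. Paics sat at the top (mean 59.8 CPM per kb) and Dhodh at the bottom (1.74 CPM per kb), and the order of Atic, Gart and of Impdh2, Umps changed from library to library.

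Expression of RAS raised Ppat, which encodes amidophosphoribosyltransferase, the committed step of purine synthesis, in both WT series, whether or not the fit took account of the WT line. EV and RAS libraries of a series came from the same numbered WT lines. The line block was the replicate number over all libraries of a series. KO or DKO libraries, from other embryos, thus shared a term with the WT line of their number. With this block Paics, Cad and Gart also rose in the S6K1 series (adjusted p = 0.00106, 0.00358 and 0.00882, edgeR). Pfas rose with it in the S6K1/S6K2 series (adjusted p = 0.0479, edgeR), whereas without it Ppat alone passed in each. In the S6K1 series all 10 genes had a higher mean with RAS than with EV, with a median log2 fold change of 0.19 against 0.0018 over all 14036 genes tested. Of the 10 genes in the S6K1/S6K2 series, 6 were higher and 4 lower, with a median of 0.15 against -0.02 over 13881 genes. By edgeR's quasi-likelihood test without the block, 1 of 10 genes passed an adjusted p of 0.05 in the S6K1 series, where 13.2% of all genes did, and 1 of 10 in the S6K1/S6K2 series, where 26.3% did. At an unadjusted p of 0.05, 4 and 3 of the 10 genes passed, beside 3710 of all 14036 genes and 5524 of all 13881. These counts are no result about the set as a whole.

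**Figure D2:**
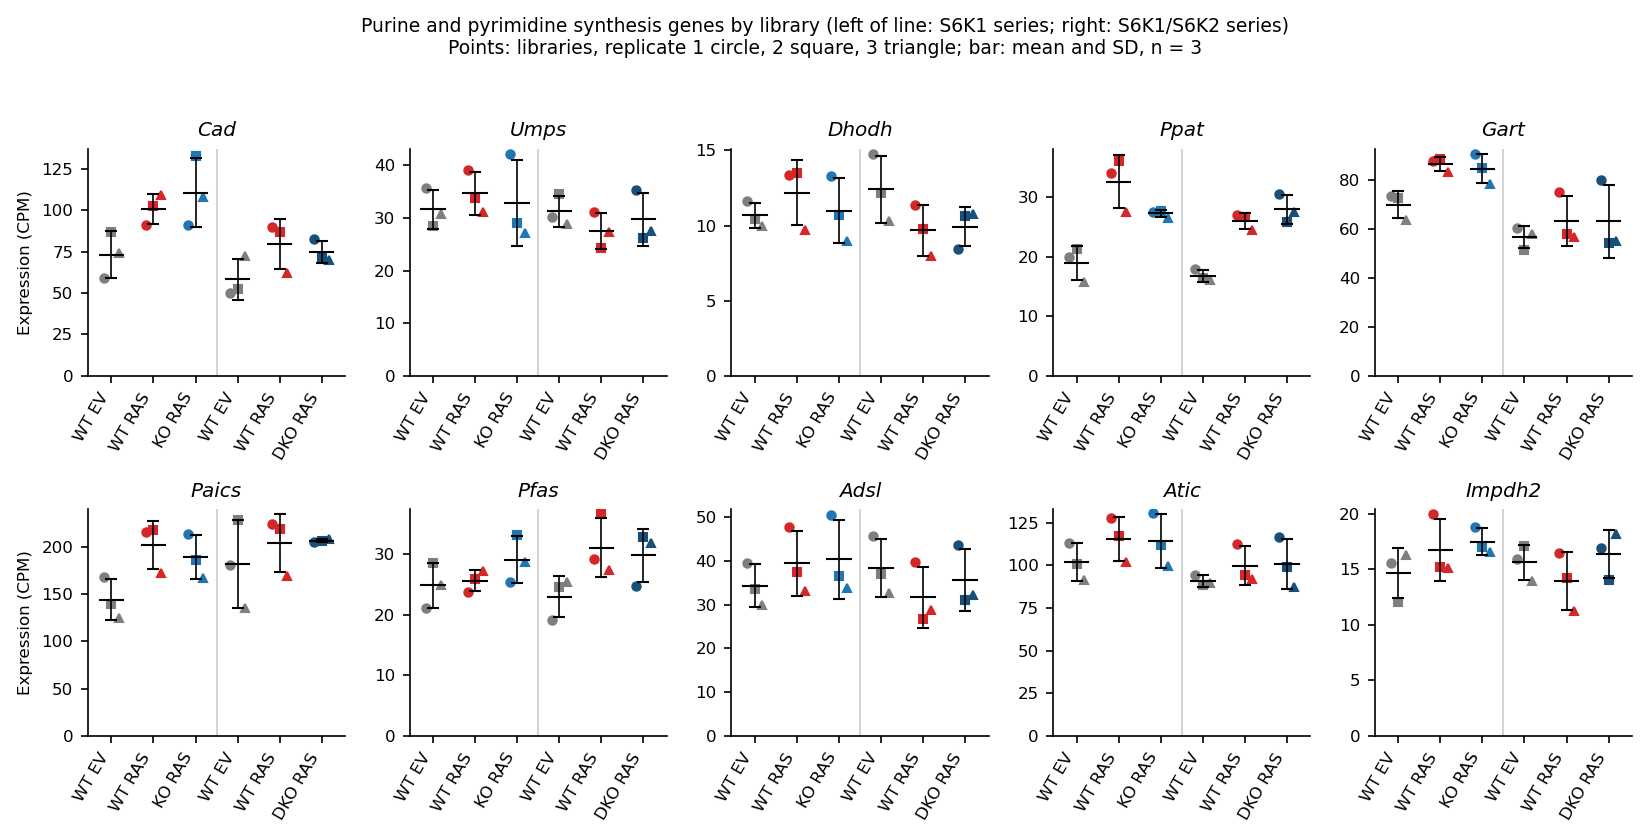
Level of each of the 10 genes in every library, in TMM-normalised CPM, for the 3 groups of each series, with one point per library (a symbol per replicate number) and bars for the mean and SD. For Ppat the 3 WT RAS libraries lay above the 3 WT EV libraries in both series (27.6 to 36.1 against 15.8 to 21.2 CPM, and 24.5 to 27.0 against 16.1 to 17.99 CPM), while the KO and DKO points overlapped those of WT RAS for every gene.

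Ppat lies on chromosome 5 of GRCm38.p6 (chr5:76913249-76951578, minus strand). Its level in WT EV libraries of the S6K1 series was 19.98, 21.2 and 15.8 CPM (replicates 1, 2 and 3), against 34.2, 36.1 and 27.6 CPM in WT RAS. The groups did not overlap, and the mean went from 19.0 ± 2.87 to 32.6 ± 4.46 CPM, a rise of 1.71-fold (95% confidence interval 1.35 to 2.17, log2 0.78, SE 0.15, adjusted p = 0.00974, edgeR). Within lines, RAS minus EV was almost the same in each of the 3, at 0.75 to 0.79 on the log2 scale.

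Ppat in the S6K1/S6K2 series was at 17.99, 16.4 and 16.1 CPM with EV and at 27.0, 26.7 and 24.5 CPM with RAS, again with no overlap. The rise was 1.55-fold (95% confidence interval 1.27 to 1.89, log2 0.63, SE 0.13, adjusted p = 0.00679, edgeR), and it was seen in 3 of 3 lines, by 0.57 to 0.69 on the log2 scale. The increase was not shown to differ between the 2 series: S6K1/S6K2 minus S6K1 was -0.16 (95% confidence interval -0.57 to 0.25, adjusted p = 0.73, edgeR).

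Ppat shares its start region with Paics, which runs the other way on the same chromosome (chr5:76951302-76967509, plus strand), and the 2 genes overlap head to head by 277 bases. The strand setting of the counting was not given in the sources used here, so reads in that stretch cannot be assigned to one of the pair. A long noncoding RNA gene, LOC115486295, lies within the span of Ppat in RefSeq and covers 23504 of its 38330 bases, introns included, and whether its reads were counted for Ppat was not tested. Paics encodes the bifunctional enzyme that carboxylates the purine precursor and joins aspartate to it. In the S6K1 series Paics was at 168, 139 and 125 CPM with EV and at 216, 218 and 172 CPM with RAS, with no overlap, and the difference did not pass the test (log2 0.49, SE 0.15, adjusted p = 0.0711, edgeR). With the line as a block it did, at an adjusted p of 0.00106. Its EV libraries in the S6K1/S6K2 series, at 181, 229 and 136 CPM, spanned those with RAS, at 225, 219 and 169 CPM (log2 0.17, adjusted p = 0.533). On the log2 scale Ppat minus Paics was -3.04 to -2.68 with EV and -2.64 to -2.58 with RAS in the S6K1 series, and -3.76 to -3.04 and -3.03 to -2.76 in the other, so the balance of the pair lay further towards Ppat with RAS in both.

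Promoter windows of 250 bases before to 50 bases after the start (RefSeq, GRCm38.p6) were at hand for 8 of the 10 genes, all but Dhodh and Pfas, and were searched on both strands for 6 short motifs. The E2F-type motif TTTCCCGC, present in 1.07% of 32851 windows, was found in that of Ppat alone among the 8, at 2 places, both read on the other strand as GCGGGAAA. Both stretches of 30 bases are shown on the strand of Ppat, with the motif in capitals, at 211 and 158 bases before its start, and both lie inside the interval of Paics.
Ppat, chr5:76951771-76951800, minus strand: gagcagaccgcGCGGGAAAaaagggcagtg
Ppat, chr5:76951718-76951747, minus strand: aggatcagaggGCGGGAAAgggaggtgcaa

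The E-box CACGTG, the motif MYC is known to bind, was found in 3 of the 8 windows, those of Paics, Atic and Impdh2, and in 7.15% of all windows. The 3 stretches are given because MYC is a known activator of nucleotide synthesis genes. Capitals mark the E-box, which reads the same on both strands, at 203, 7 and 110 bases before the start.
Paics, chr5:76951087-76951116, plus strand: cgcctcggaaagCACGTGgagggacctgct
Atic, chr1:71557137-71557166, plus strand: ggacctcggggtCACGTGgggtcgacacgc
Impdh2, chr9:108560314-108560343, plus strand: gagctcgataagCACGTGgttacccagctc

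The cAMP response element TGACGTCA, found in 1.79% of windows, was in that of Umps, 4 bases after the start, and is shown in capitals.
Umps, chr16:33967017-33967046, minus strand: ggacttctgggTGACGTCAcgggccccaag
Of the other motifs, the ETS-type CCGGAAG was found in the windows of Ppat and Gart (8.86% of all), the GC box GGGCGG in all 8 (35.7% of all) and CCAAT in 4 of 8 (37.4% of all). The second E2F-type match of Ppat overlaps a GC box. The E-box of Paics lies inside the interval of Ppat, past the end of the Ppat window. Matches are descriptions of the letters in these windows.

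Myc was at 40.9 ± 16.7 CPM with EV and 72.8 ± 9.87 CPM with RAS in the S6K1 series (SD, n = 3), which did not pass the test (log2 0.83, SE 0.27, adjusted p = 0.076, and 0.00113 with the line as a block, edgeR). It rose in the S6K1/S6K2 series, from a mean of 31.3 to 73.3 CPM (log2 1.23, SE 0.31, adjusted p = 0.0187). Over the 18 libraries, with each series centred on its own mean, log2 CPM of Myc had a Pearson r of 0.85 with Ppat, 0.70 with Atic, 0.70 with Gart and 0.57 with Paics. Its r was 0.52 with Cad, 0.30 with Adsl, 0.27 with Pfas, 0.24 with Impdh2, 0.10 with Umps and -0.06 with Dhodh. These are descriptions over libraries that share groups and lines.

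Cad encodes the multifunctional enzyme that carries out the opening steps of pyrimidine synthesis (chr5:31054620-31078479, plus strand). Its levels in the S6K1 series were 58.7, 87.0 and 73.8 CPM with EV and 91.2, 102 and 109 CPM with RAS. All 3 RAS libraries were above all 3 EV libraries, but the spread within groups was wide, and the difference (log2 0.46, SE 0.18, adjusted p = 0.131, edgeR) did not pass the test unless the line entered as a block (adjusted p = 0.00358).

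Cad in the S6K1/S6K2 series was at 50.1, 52.2 and 72.2 CPM with EV and at 89.8, 87.1 and 62.2 CPM with RAS. The groups overlapped through line 3, whose level was lower with RAS than with EV by 0.21 on the log2 scale, while line 1 was higher by 0.83. The mean difference was nearly that of the first series (log2 0.45, SE 0.18, adjusted p = 0.0934, and 0.125 with the block), and the difference between the series was -0.02 (95% confidence interval -0.58 to 0.54).

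The remaining pyrimidine genes showed no increase of that size. Dhodh (chr8:109593244-109608699, minus strand), which encodes the mitochondrial dihydroorotate dehydrogenase, was at 9.99 to 11.6 CPM with EV and 9.72 to 13.5 CPM with RAS in the S6K1 series (log2 0.19, adjusted p = 0.587, edgeR). In the S6K1/S6K2 series it was at 14.8, 12.2 and 10.3 CPM with EV against 11.4, 9.77 and 7.97 CPM with RAS, lower in 3 of 3 lines by 0.31 to 0.37, and still inside the spread between libraries (log2 -0.36, SE 0.22, adjusted p = 0.244). Its difference between series, -0.56, had the smallest p of the 10 genes without the block (95% confidence interval -1.17 to 0.05, adjusted p = 0.421, edgeR). With the block Adsl had the smallest (unadjusted p = 0.00182, against 0.0375 for Dhodh, edgeR). Umps (chr16:33954782-33967038, minus strand), whose product turns orotate into UMP, was at 28.5 to 35.7 and 31.1 to 39.2 CPM in the S6K1 series and at 28.9 to 34.6 and 24.3 to 31.1 CPM in the other, with overlap in both (log2 0.13 and -0.18, adjusted p = 0.705 and 0.418).

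Among the purine genes after Ppat, Gart (chr16:91621395-91646972, minus strand), a trifunctional enzyme of the early ring, had narrow groups in the S6K1 series. It was at 73.6, 72.8 and 63.7 CPM with EV and at 87.7, 88.6 and 83.5 CPM with RAS, with no overlap, and missed the threshold (log2 0.31, SE 0.11, adjusted p = 0.0917, and 0.00882 with the block, edgeR). In the other series it was at 51.6 to 60.4 and 56.8 to 75.3 CPM (log2 0.16, adjusted p = 0.528).

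Pfas (chr11:68985701-69008460, minus strand), which encodes the glutamine-using synthase between the GART steps, showed its difference in the S6K1/S6K2 series instead. Its levels there were 19.1, 24.5 and 25.4 CPM with EV and 29.2, 36.6 and 27.4 CPM with RAS, with no overlap (log2 0.43, SE 0.17, adjusted p = 0.0941, and 0.0479 with the block, edgeR). In the S6K1 series Pfas was at 21.0 to 28.5 and 23.7 to 27.2 CPM (log2 0.04, adjusted p = 0.89), and the difference between the series, 0.38, did not pass (95% confidence interval -0.11 to 0.87, adjusted p = 0.489).

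Adsl (chr15:80948490-80970947, plus strand), whose product acts both before IMP and on the way to AMP, was at 39.5, 33.6 and 29.96 CPM with EV and 47.6, 37.5 and 33.0 CPM with RAS in the S6K1 series, higher in 3 of 3 lines. In the S6K1/S6K2 series it was at 45.6, 37.1 and 32.6 CPM with EV and 39.7, 26.7 and 28.7 CPM with RAS, lower in 3 of 3 lines. Neither passed the test (log2 0.20 and -0.28, adjusted p = 0.578 and 0.332, and 0.0999 and 0.0886 with the line as a block, edgeR). Nor did the difference of -0.49 between series (95% confidence interval -1.12 to 0.14, adjusted p = 0.489, and 0.0775 with the line as a block). Replicate 1 had the highest Adsl level of its group in all 6 groups.

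Atic (chr1:71557156-71579403, plus strand) closes the ring to IMP, and Impdh2 (chr9:108560436-108565577, plus strand) takes IMP towards GMP. Atic was at 91.6 to 113 and 102 to 128 CPM with EV and RAS in the S6K1 series and at 88.2 to 94.6 and 91.9 to 113 CPM in the other, higher with RAS in 3 of 3 lines of each series by 0.04 to 0.25 on the log2 scale (log2 0.18 and 0.14, adjusted p = 0.467 and 0.478, edgeR). Impdh2 was at 12.1 to 16.3 and 15.1 to 19.98 CPM, and at 13.9 to 17.1 and 11.2 to 16.4 CPM (log2 0.19 and -0.17, adjusted p = 0.519 and 0.541). Both were thus within the spread between libraries without the block. With the line as a block, Atic in the S6K1 series had an unadjusted p of 0.0263 and an adjusted p of 0.0667 (edgeR), which did not pass.

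**Figure D3:**
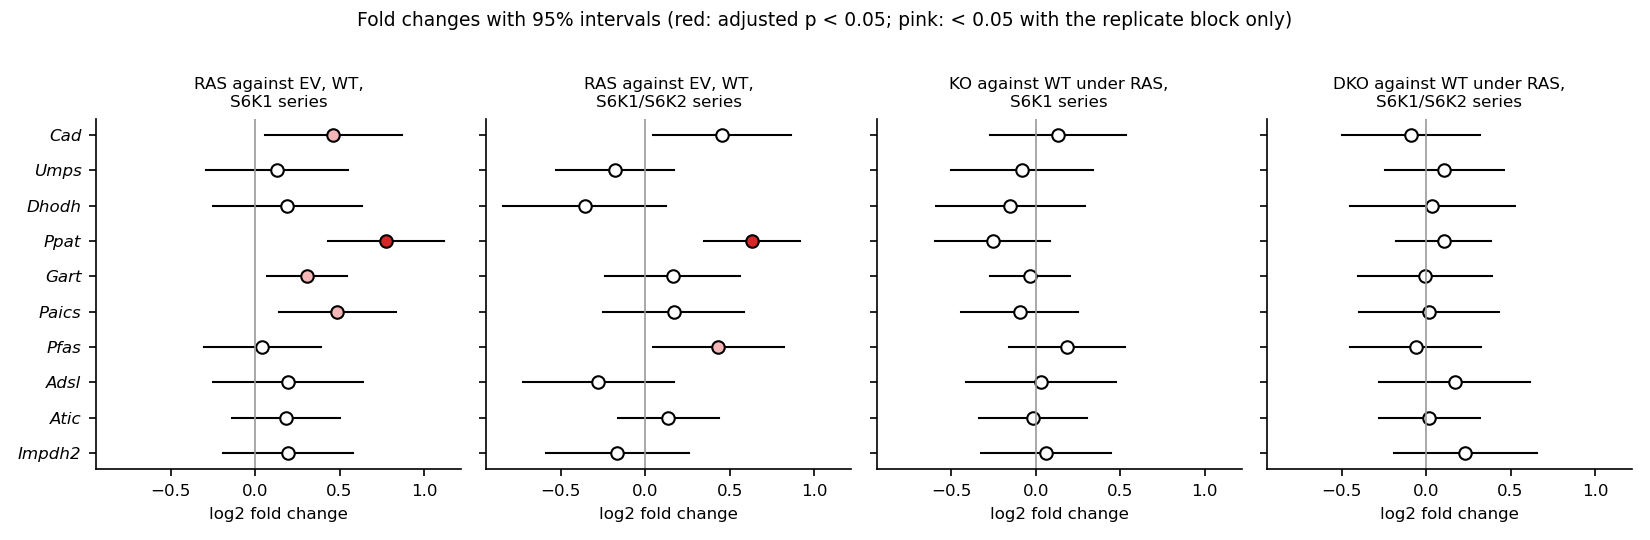
Log2 fold change of each gene with its 95% confidence interval from edgeR, for RAS against EV in WT cells and for KO or DKO against WT under RAS, one panel each, with red for genes past an adjusted p of 0.05 and pink for those past it with the line as a block alone. Ppat was the gene whose interval stayed furthest from 0 in both RAS comparisons (0.43 to 1.12 and 0.35 to 0.92), and all intervals of the loss comparisons included 0.

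Groups without overlap were 4 of 10 genes in the S6K1 series (Cad, Ppat, Gart and Paics), where 30.9% of all genes had none, and 2 of 10 in the S6K1/S6K2 series (Ppat and Pfas), where 42.5% had none. With the line as a block, 4 of 10 passed in the S6K1 series (Ppat, Paics, Cad and Gart) beside 36.2% of all genes, and 2 of 10 in the other (Ppat and Pfas) beside 28.7%. All of these shares of the set lay near or under those of all genes, so they are no result about the set as a whole. Leaving out the libraries of line 1, 2 or 3 from the blocked fit of the S6K1 series, an alternative chosen after the data were seen, gave 2, 3 and 5 genes. DESeq2 called 2 (Ppat and Paics) and 1 (Ppat) of the 10, beside 2386 and 4116 of all genes.

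Loss of S6K1, or of S6K1 and S6K2 together, in cells that carried RAS moved none of the 10 genes beyond the spread between replicates. By edgeR 0 of 10 passed in KO against WT, where 0.00712% of all genes did, and 0 of 10 in DKO against WT, where 0.0216% did. At an unadjusted p of 0.05 it was 0 of 10 in both, beside 963 of all 14036 genes for KO and 179 of all 13881 for DKO. DESeq2 also called 0 in both, beside 96 and 10 of all genes. With the replicate number as a block, 0 of 10 passed in either comparison, beside 4.15% of all genes for KO and 0.0576% for DKO, and 1 of 10, Ppat in KO, had an unadjusted p under 0.05. Groups overlapped for all 10 genes in both comparisons, whereas 8.02% and 6.07% of all genes had groups without overlap.

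Cad, whose protein S6K1 phosphorylates, was at 91.0, 133 and 108 CPM in KO against 91.2, 102 and 109 CPM in WT with RAS. Replicates 1 and 3 were alike and replicate 2 was higher in KO, giving a mean difference of log2 0.13 (95% confidence interval -0.27 to 0.53, adjusted p = 0.997, edgeR). In DKO it was at 82.4, 72.0 and 70.2 CPM against 89.8, 87.1 and 62.2 CPM in WT (log2 -0.09, 95% confidence interval -0.50 to 0.32). These values are of mRNA, and the phosphorylation of the protein was not measured in these libraries.

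Ppat, the gene that rose with RAS, was at 27.6, 27.7 and 26.6 CPM in KO against 34.2, 36.1 and 27.6 CPM in WT with RAS, lower in 3 of 3 same-numbered pairs by 0.05 to 0.37 on the log2 scale. The difference was not past the test (log2 -0.26, 95% confidence interval -0.60 to 0.08, adjusted p = 0.943, and 0.232 with the block, edgeR). In DKO it was at 30.6, 25.9 and 27.5 CPM against 27.0, 26.7 and 24.5 CPM (log2 0.10, 95% confidence interval -0.18 to 0.39). DKO minus KO in effect was 0.39 (95% confidence interval -0.01 to 0.80, adjusted p = 1, edgeR). All KO and DKO libraries had a Ppat level above every WT EV library of their series. The RAS and the loss comparison of a series share its WT RAS libraries.

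For the other 8 genes the KO comparison gave log2 values from -0.15 (Dhodh) to 0.19 (Pfas), and the DKO comparison from -0.06 (Pfas) to 0.23 (Impdh2). Over the 10 genes the 95% confidence intervals reached from -0.60 to 0.53 for KO and from -0.50 to 0.66 for DKO, which is the size of change that 3 libraries a group left unseen. The median was -0.03 for KO and 0.03 for DKO, beside 0.03 and -3e-04 over all genes. Impdh2 in DKO, at 17.0, 13.99 and 18.1 CPM against 16.4, 14.2 and 11.2 CPM, differed mostly in replicate 3. No gene of the set passed the test of a difference between the series in its response to RAS (0 of 10, beside 0% of all genes) or to loss (0 of 10, beside 0.0069%), and at an unadjusted p of 0.05 it was 0 of 10 for each in edgeR, and 0 called by DESeq2. With the line or replicate number as a block 0 of 10 passed for either, but 3 (Adsl, Pfas and Dhodh) were under an unadjusted p of 0.05 for RAS and 1 (Ppat) for loss.

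The mean level of the set moved with the replicate number as well as with the vector. Centred within its series, the mean log2 level of the 10 genes in the S6K1 series was -0.13, -0.17 and -0.27 for the EV lines, 0.20, 0.14 and -0.02 for the WT lines carrying RAS, and 0.20, 0.10 and -0.05 for the KO lines, so replicate 3 was lowest in each group. Those of the S6K1/S6K2 series were -0.05, -0.05 and -0.15 for EV, 0.19, 0.02 and -0.16 for WT carrying RAS, and 0.17, -0.0004 and 0.04 for DKO, and the RAS library of WT line 3 was level with that line under EV.

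The genes did not move as one block over the 18 libraries. Of the 45 pairs, Gart with Atic (Pearson r 0.85) and Umps with Adsl (0.84) were most alike, Cad ran with Pfas (0.73) and Ppat with Paics (0.71), and the median r was 0.43. Pfas ran against Umps (-0.63) and Adsl (-0.61). The genes most like the mean of the set, among 9820 others with a mean of at least 100 counts, were Sdha (r 0.95), Arf6 (0.93), Ttc1 (0.93), Txn1 (0.92) and Tuba1c (0.92). All of these are descriptions over 18 libraries that share groups, lines and depth.

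**Figure D4:**
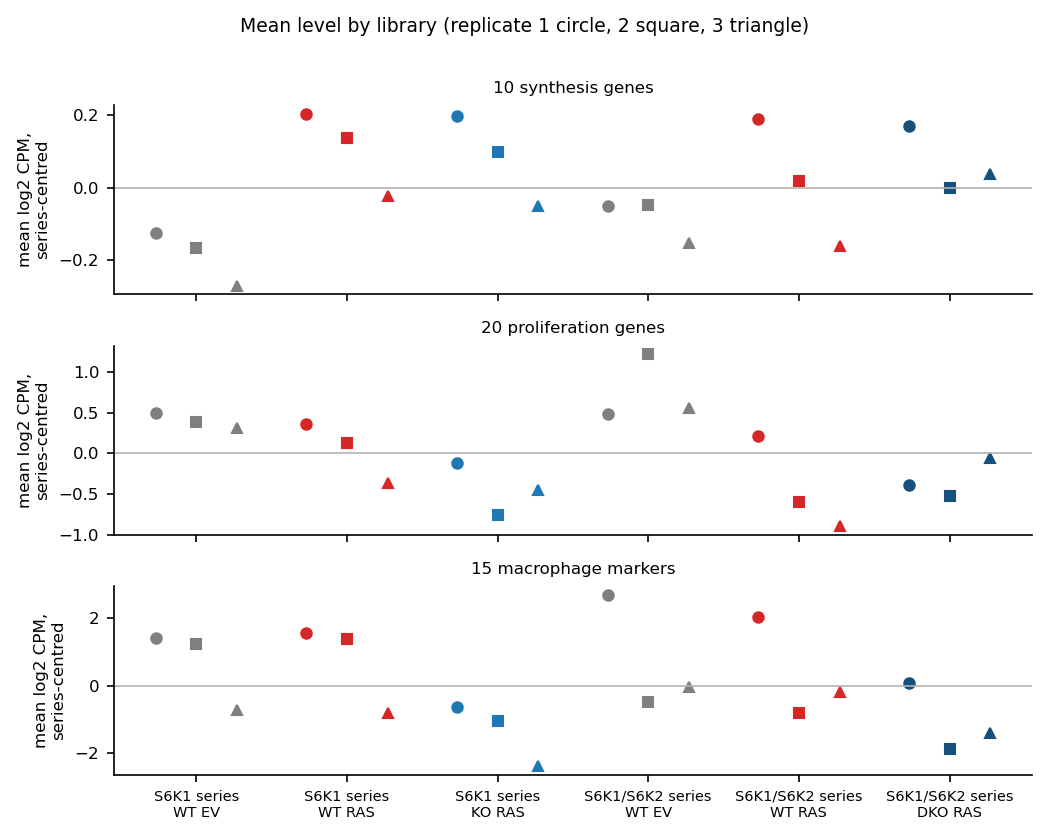
Mean log2 level of the 10 genes in each library, centred within its series, above those of 20 proliferation genes and 15 macrophage markers, each panel on an axis of its own. In the S6K1 series the 10 genes ran from -0.27 to 0.20, while the macrophage markers ran from -2.39 to 1.55.

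Of 20 proliferation genes, 2 fell with RAS in the S6K1 series (median log2 -0.37), where 13.2% of all genes passed, and 15 fell in the S6K1/S6K2 series (median -1.18), where 26.3% did, and none rose, in edgeR. With the line as a block 4 fell in the first, beside 36.2% of all genes, and 9 in the second, beside 28.7%. Top2a, which untangles DNA in division, fell from 120 to 79.3 CPM (log2 -0.60, adjusted p = 0.0225) and from 159 to 69.6 CPM (log2 -1.19, adjusted p = 0.0489, and 0.0788 with the block). Mki67 fell by 1.15 and 1.32 on the log2 scale (adjusted p = 0.00548 and 0.0335, the latter 0.0519 with the block), whereas Mcm6 of the replication helicase was at -0.06 and -0.82 (adjusted p = 0.911 and 0.0437). Under RAS all 20 had a lower mean in KO than in WT (median -0.53), of which 0 passed in edgeR, 8 were under an unadjusted p of 0.05, 2 passed with the block and 0 in DESeq2. Of all 14036 genes in that comparison, 963 were under that unadjusted p and 4.15% passed with the block. In DKO 13 were higher and 7 lower (median 0.02), and 0 passed in edgeR, at an unadjusted p of 0.05, with the block or in DESeq2. The mean of the proliferation genes had an r of -0.58 with Ppat, -0.62 with Cad and -0.62 with Pfas over the 18 libraries, and of 0.60 with Dhodh and 0.47 with Umps. Its r was -0.25 with Gart, -0.13 with Atic, -0.10 with Paics, 0.25 with Impdh2 and 0.355 with Adsl. With the mean of the 10 genes it was -0.18. The part of the proliferation genes in the values of the 10 genes was not tested.

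All 15 macrophage markers had a lower mean in KO than in WT with RAS (median log2 -2.17), of which 0 passed in edgeR, 15 were under an unadjusted p of 0.05, 15 passed with the block and 1 in DESeq2. Of all 14036 genes in that comparison, 963 were under that unadjusted p, 4.15% passed with the block, and DESeq2 called 96. All 15 had a lower mean in DKO too (median -1.95), with overlap between the groups for each, and 0 passed in edgeR, 2 were under an unadjusted p of 0.05, 1 passed with the block and 0 in DESeq2. Of all 13881 genes there, 179 were under that unadjusted p and 0.0576% passed with the block. In the RAS comparisons 0 of 15 passed in edgeR in either series, at an unadjusted p of 0.05 or in DESeq2. With the block 7 and 5 passed, beside 36.2% and 28.7% of all genes. Of the epithelial markers, the keratin gene Krt18 rose with RAS in both series. It was at 4.40 to 9.12 CPM with EV and 103 to 142 CPM with RAS in the S6K1 series (adjusted p = 1.27e-04, edgeR), and at 0.349 to 3.496 and 75.5 to 114 CPM in the other (adjusted p = 2.22e-04). Epcam, Krt8 and Cldn4 had 0 to 5 counts per library with EV and passed the filter on low counts only through libraries with RAS, so a count of these genes as called is no result about the list. Cdh1 did not pass the filter and was at 0.183 to 0.596 CPM with EV and 0.512 to 0.701 CPM with RAS in the S6K1 series, and at 0 to 0.0884 and 0.371 to 1.31 CPM in the other, and Esrp1 was at 0 in 17 libraries. The summed level of the 6 markers was 5.04 to 10.2 CPM with EV and 121 to 157 CPM with RAS in the S6K1 series, and 0.611 to 4.28 and 99.7 to 136 CPM in the other. Of endothelial markers 1 rose and 1 fell of 6 tested in the S6K1 series, and 1 rose and 2 fell of 5 in the other. With the block 1 rose and 4 fell in the first, and Tie1 was at 0 in 13 libraries. Cdh5 had 0 to 2 counts per library with EV and 17 to 53 in WT with RAS. It passed the filter on low counts only through libraries with RAS, so its rise is no result about the list. Of 12 fibroblast markers 1 rose and 4 fell with RAS in the S6K1 series, and 4 fell in the other. Of all genes, 13.2% passed in the first series, or 36.2% with the block, and 26.3% in the other. The part of these markers in the levels of the 10 genes was not tested.

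Genes that supply or use the products of the 10 enzymes were counted by list. Over the 7 lists from PRPP to breakdown, 9 of 71 genes passed with RAS in the S6K1 series and 26 with the line as a block, and 21 and 20 of 72 in the other. Of all genes, 13.2% and 36.2% passed in the first series and 26.3% and 28.7% in the other. The counts lay near these shares, so they are no result about the lists. The counts of each list that follow stand beside the same shares. Of the genes that make activated ribose phosphate (PRPP), 0 of 5 passed in any comparison by edgeR, also at an unadjusted p of 0.05, with the block or by DESeq2. Prps1 and Prps2, the phosphoribosyl pyrophosphate synthetases, were at log2 0.08 and 0.18 in the S6K1 series (adjusted p = 0.856 and 0.482) and -0.22 and 0.35 in the other (adjusted p = 0.386 and 0.153).

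On the branch from IMP to AMP and GMP, 2 of 6 rose with RAS in each series and none fell. Adssl1, an adenylosuccinate synthetase, rose in both, from 8.26 ± 1.06 to 16.4 ± 1.66 CPM (log2 0.99, SE 0.16, adjusted p = 0.00339, edgeR) and from 7.58 ± 2.91 to 23.9 ± 2.15 CPM (log2 1.65, SE 0.29, adjusted p = 0.00337). Its paralog Adss rose in the S6K1 series (log2 0.44, adjusted p = 0.0335), and Gmpr, which returns GMP to IMP, in the S6K1/S6K2 series (log2 0.48, adjusted p = 0.0427). Impdh1, the paralog of Impdh2, was at log2 0.20 and 0.34 (adjusted p = 0.239 and 0.303) and Gmps at -0.01 and -0.12 (adjusted p = 0.976 and 0.484).

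Of 10 pyrimidine conversion genes, 0 passed in edgeR in the S6K1 series, where 3 were under an unadjusted p of 0.05, 4 passed with the block and 0 in DESeq2. In the other series 1 fell, the kinase gene Nme6 (log2 -0.94, adjusted p = 0.049, and 0.0676 with the block, edgeR). Ctps, which turns UTP into CTP, was at log2 -0.20 and 0.39 (adjusted p = 0.272 and 0.135). Of the genes of folate one-carbon metabolism, 1 of 11 fell in the S6K1 series and 3 of 12 in the other, and none rose, whereas with the block 2 fell and 1 rose in the first. Aldh1l2, a mitochondrial formyl-folate dehydrogenase, fell in both, from 92.5 ± 29.6 to 38.4 ± 8.77 CPM (log2 -1.27, adjusted p = 0.0153) and from 109 ± 49.96 to 35.4 ± 4.64 CPM (log2 -1.62, adjusted p = 0.00812), and Shmt1 fell in the S6K1/S6K2 series (log2 -1.39, adjusted p = 0.00592).

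Salvage genes changed in both directions, with 3 up and 1 down of 17 in the S6K1 series and 4 up and 3 down in the other, and with the block 6 up and 1 down in the first. Upp1, the uridine phosphorylase, had 1 to 4 counts per library with EV in either series and 76 to 159 with RAS, that is 0.0884 to 0.349 CPM and 7.04 to 15.02 CPM, and passed in both (adjusted p = 1.65e-04 and 1.06e-04, edgeR). With so few counts under EV no fold is given, and it passed the filter on low counts only through libraries with RAS. Slc29a1, the equilibrative nucleoside transporter, fell in both (log2 -1.10 and -2.06, adjusted p = 0.0135 and 0.0036). Cda, of cytidine deamination, was at a mean of 0.375 CPM with EV and 1.53 CPM with RAS in the S6K1 series (adjusted p = 0.0352, edgeR). Its EV level was under the filter on low counts, which Cda too passed only through libraries with RAS. Upp1 and Cda are both among the 3 salvage genes up in that series. In the S6K1/S6K2 series Uck2 rose (log2 0.73, adjusted p = 0.0476, and 0.0631 with the block, edgeR) and Tk1 fell (log2 -1.19, adjusted p = 0.0408, and 0.0614 with the block).

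Deoxynucleotide genes feed DNA synthesis. Of 8 with RAS, 4 fell in the S6K1/S6K2 series, among them Rrm1 of ribonucleotide reductase (log2 -0.99, adjusted p = 0.0275, edgeR) and the thymidylate synthase gene Tyms (log2 -0.97, adjusted p = 0.0231). In the S6K1 series none fell and Dctd rose (log2 0.53, adjusted p = 0.0364), and with the block 2 rose and 1 fell, Rrm1 (adjusted p = 0.00893). The difference between the series passed for 0 of 8 in edgeR, with the block or in DESeq2. It had an unadjusted p under 0.05 for 3, beside 1819 of all 14483 genes.

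Of 14 nucleotide breakdown genes 1 rose in the S6K1 series, the ecto-nucleotidase gene Nt5e (log2 0.96, adjusted p = 0.0136, edgeR), and 4 rose in the other, led by the purine oxidase gene Xdh (from 3.27 ± 0.394 to 16.6 ± 6.13 CPM, log2 2.34, adjusted p = 0.00113) and the guanine deaminase gene Gda (log2 1.77, adjusted p = 0.0287). With the block 4 rose and 2 fell in the S6K1 series, where Xdh and Gda were among those that rose (adjusted p = 4e-04 and 0.0116). Of 15 regulators, 2 rose and 1 fell in the S6K1 series, or 3 and 3 with the block, and 4 rose and 2 fell in the other. Mxd4, a partner of MAX that opposes MYC, fell in both (log2 -0.93 and -1.33, adjusted p = 0.00137 and 7.66e-04), Mxi1 rose in the S6K1 series (log2 0.54, adjusted p = 0.014), and in the S6K1/S6K2 series Mxd3 fell (log2 -2.31, adjusted p = 0.006) and Mycl rose from 1.87 ± 1.502 to 5.64 ± 0.338 CPM (adjusted p = 0.0432). Hras, counted among the regulators, rose in both (log2 0.93 and 0.75, adjusted p = 0.0029 and 0.00568).

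**Figure D5:**
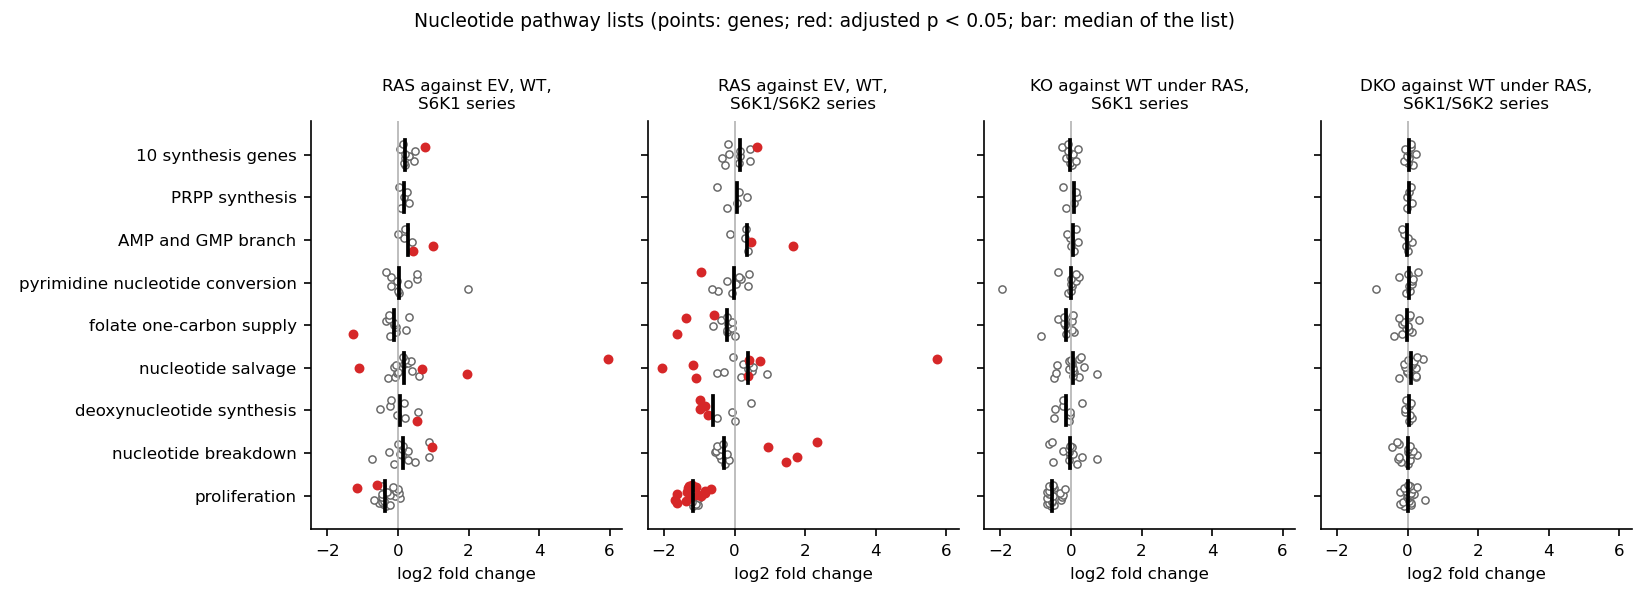
Log2 fold change of every gene tested among the 10 synthesis genes and 8 related lists, the 7 from PRPP to breakdown and the proliferation genes (regulators and cell type markers are not drawn), one panel per comparison, with red points for genes past an adjusted p of 0.05 in edgeR and bars for list medians. The 10 genes hold 1 red point in each RAS panel, Ppat, red salvage genes lie on both sides of 0, and the KO and DKO panels hold no red point for any of these 9 lists.

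Under RAS, loss of the kinases gave few calls in these lists. Of the 71 genes tested in the 7 lists from PRPP to breakdown, 0 passed in KO against WT in edgeR, 6 were under an unadjusted p of 0.05, 4 passed with the block and 0 in DESeq2. Of all 14036 genes, 963 were under that unadjusted p and 4.15% passed with the block. In DKO against WT 0 of 72 passed in any of these. Of the regulators the 2 that passed in DKO against WT were the deleted genes, Rps6kb1 (log2 -1.11, adjusted p = 0.00908) and Rps6kb2 (log2 -3.18, adjusted p = 7.44e-05). Rps6kb1 in KO was at log2 -1.17 (SE 0.17, adjusted p = 0.234, and 1.01e-04 with the block), and Rps6kb2 in KO at -0.04. Myc was at 82.3 ± 15.6 CPM in KO (log2 0.18, adjusted p = 0.997) and 79.3 ± 15.04 CPM in DKO (log2 0.11, adjusted p = 1).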

How the data were processed

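RNA was extracted from MEFs and sequenced as single-end reads from stranded mRNA libraries. The authors deposited one table of raw read counts per gene, without normalisation. The study's methods give TopHat, mm9 and HTSeq, whereas the submitters' processing notes name STAR 2.7.1a, mm10 and DESeq2 1.28.1, so neither the aligner nor the build of the table is certain (mm10, which is GRCm38, was taken for positions), and the strand setting of the counting was not given in the sources used here. The 18 columns of the table were mapped to samples by their titles, and 0 were left unused. Symbols could be assigned to 32589 identifiers (99.1% of counts).

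Counts were scaled by TMM and tested with edgeR 4.0.16 (quasi-likelihood, R 4.3.3), one fit per series with groups as terms and a filter of at least 10 counts in 3 libraries (filterByExpr), and over both series for differences between them. Benjamini-Hochberg adjustment ran over all genes tested, at a threshold of 0.05. CPM are TMM-normalised, and levels on the log2 scale use a pseudocount of 0.5. DESeq2 1.42.0, other scalings and filters, a replicate block and leaving out single libraries were alternatives, and the fits were tested on simulated data. Same-numbered libraries of EV and RAS carry the same WT line number in the labels, and their deviations from group means correlated at 0.467 to 0.725 in the S6K1 series and 0.291 to 0.37 in the other. For KO against WT it was 0.419 to 0.725, and for DKO against WT -0.042 to 0.472, so numbers were taken to pair libraries in the first 3 of these comparisons. The block nevertheless ran over all libraries of a series, those of DKO included. Blocked RAS results of the S6K1/S6K2 series therefore also rest on the numbers of the DKO libraries. No replicate pair was closer than a chi-square per degree of freedom of 7.98, so none was counted as 1 library.

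The 10 genes, the related lists (PRPP supply, AMP and GMP branch, pyrimidine conversion, folate, salvage, deoxynucleotides, breakdown, regulators, proliferation, and fibroblast, macrophage, endothelial and epithelial markers) and the tests were chosen with earlier results of these data known. All 10 genes are named, plus, per related list and comparison, up to 2 called genes at the top and 2 at the bottom by fold change, Rps6kb1, Rps6kb2, Hras, Myc, Prps1, Prps2, Impdh1, Gmps and Ctps always, up to 3 proliferation genes by mean level, and the 5 genes most like the set. Positions, promoter windows and motifs are of GRCm38.p6 (RefSeq). Exon lengths are of GENCODE vM1, over all annotated exons of a gene together.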

Additional observations from a re-analysis of the deposited data

Results flagged for a closer look

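None of the 10 genes passed the test of a difference between the series in its response to RAS or to loss of the kinases. Of the other named genes, Rps6kb2 differed between DKO against WT and KO against WT by -3.11 on the log2 scale (adjusted p = 9.1e-07, edgeR), in the direction of the deletion that the DKO alone carries.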

How the results depend on the processing

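The rise of Ppat with RAS kept its direction and its side of the threshold under every alternative run, with log2 0.66 to 0.88 in the S6K1 series and 0.61 to 0.68 in the S6K1/S6K2 series when single libraries were left out. The number of the 10 genes called in the S6K1 series was 1, against 2 by DESeq2 and 4 with the replicate block, and ranged from 1 to 5 with libraries left out: without WT RAS replicate 3 it was 2 (Paics joined, adjusted p = 0.0429, edgeR), and 5 came from the block without replicate 3, an alternative chosen after the data were seen. In the S6K1/S6K2 series it was 1, against 2 with the replicate block, and 1 to 2 with libraries left out, 2 without WT EV replicate 3 (Cad joined, adjusted p = 0.0236, edgeR). The block changed no call of the 10 genes under KO or DKO. Of genes in the related lists, Adss, Dctd, Gmpr, Nme6, Uck2, Cda, Tk1, Rrm1, Gda, Tyms, Myc, Rps6kb1 (in DKO) and, in the S6K1 series, Aldh1l2, Mxi1, Nt5e and Slc29a1 lost their call under 1 or more alternatives, among them leaving out 1 library each.

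The median log2 fold change of the 10 genes ranged, with libraries left out, from 0.11 to 0.32 for RAS in the S6K1 series, from 0.0299 to 0.22 in the S6K1/S6K2 series (0.0802 with library size alone), from -0.16 to 0.0554 for KO, and from -0.35 to -0.16 for the difference of the RAS effect between series (-0.34 with library size alone, where the median of all genes was -0.13).

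All reversals of sign were of values that passed no test. With library size alone Gmps with RAS in the S6K1 series was 0.0378, Adsl and Impdh2 in KO -0.0319 and -0.0016, and Atic in DKO -0.0008. With all 18 libraries in 1 fit Gmps was 0.0087, and Gart in DKO was 0.0031, against 0.0013 by DESeq2 and 0.0129 with no filter. With libraries left out, the log2 fold change with RAS in the S6K1 series ranged from -0.0762 to 0.16 for Pfas, from -0.0458 to 0.12 for Rps6kb2, from -0.10 to 0.23 for Prps1 and from -0.0772 to 0.0468 for Gmps, and in the S6K1/S6K2 series from -0.16 to 0.0403 for Rps6kb2. In KO against WT it ranged from -0.0172 to 0.25 for Cad, -0.31 to 0.039 for Umps, -0.0927 to 0.0193 for Gart, -0.17 to 0.19 for Adsl, -0.14 to 0.0718 for Atic, -0.0166 to 0.21 for Impdh2 and -0.12 to 0.033 for Rps6kb2. In DKO against WT it ranged from -0.24 to 0.0061 for Cad, -0.0349 to 0.20 for Umps, -0.0869 to 0.17 for Dhodh, -0.21 to 0.14 for Gart, -0.10 to 0.0931 for Paics, -0.14 to 0.0736 for Pfas, -0.0044 to 0.36 for Adsl, -0.10 to 0.12 for Atic and -0.0539 to 0.24 for Myc. The difference of the RAS effect between series ranged from -0.17 to 0.17 for Cad and -0.15 to 0.0322 for Atic, and that of the loss effect from -0.17 to 0.20 for Gart, -0.0221 to 0.37 for Adsl and -0.0635 to 0.18 for Atic. The cause of these reversals was not tested.

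With 3 libraries a group, intervals of the 10 genes reached 0.49 on either side of a log2 value in the comparisons within a series, and single libraries moved several values. Reads over the shared start of Ppat and Paics, over Atraid beside Cad and over the pseudogene Gm6612 beside Adsl may have been counted for either gene, as may those over the long noncoding RNA LOC115486295, which lies within the span of Ppat. Protein and enzyme activity were not measured in these libraries.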
